A study of Mus musculus with 12 samples.

Results

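The 50 genes described here act in the last part of the cell cycle, from late G2 to the separation of the daughter cells. They were taken by name from a list of G2 and mitosis genes. The rule uses no measured value, but the list was drawn up with earlier results of these data known. Each name matched 1 row of the 57278 genes in the count table, and all 50 were abundant enough to enter the tests, among 15165 genes tested. RNA was measured by strand-specific RNA-seq in 12 libraries from 3 pancreatic tumor cell lines, named DDKC_9750, DDKC_9790 and DDKC_9804 in the labels. Each line was sequenced untreated and after recombinant DKK3 (rDKK3), with 2 libraries for each line and condition.

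The DDKC lines came from pancreatic tumors of mice that lacked Dkk3 in the whole body through replacement of its exon 2 (Dkk3-/-) and carried Cre at the Ptf1a locus (Ptf1a Cre/+), which is active in the pancreas. DKK3 is a secreted glycoprotein of the Dickkopf family. Every sample shares this genotype, untreated samples included, so the comparison is of Dkk3-null tumor cells with and without added DKK3 protein, and no line that makes its own DKK3 enters it. The concentration of rDKK3 used for the RNA samples is not given in the sources used here. Dkk3 itself had 1 read in 1 treated library and none in the other 11. The comparison asks how the RNA of the genes of cell division stood after the protein was added.

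Total counts ran from 7520741 to 24541083 in untreated libraries and from 3822987 to 11567095 in treated ones. Summed over each pair of libraries, the untreated sample of lines DDKC_9750, DDKC_9790 and DDKC_9804 held 2.91, 1.31 and 2.96 times the counts of the treated one. The 2 libraries of a pair carry a lower and a higher library number. Once an offset between these number series was fitted for each gene, the pair differed by less than the noise of sampling (residual deviance per degree of freedom 0.7804, averaged over 12979 genes, and 6.441 without the offset). Each pair was therefore summed and counted as 1 sample, which gives n = 3 lines in each condition. The labels name no separate cultures within a line. An SD given here is therefore the spread between the 3 lines, and an SE comes from the edgeR fit over the 6 summed samples. Levels are CPM, the reads of a gene per 1000000 reads of its sample, scaled by edgeR's TMM method, and 3 counts in a library, the smallest level told from 0 here, correspond to 0.127 to 0.755 CPM. In the shallowest library the member with the fewest reads, Cdc25c, still had 9.

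The keratins of ductal pancreatic cells were abundant (Krt19 at 784 to 2080 CPM over the 6 samples), as was vimentin (Vim, 1610 to 4790 CPM), whereas the epithelial surface protein Epcam stood at 0.411 to 2.04 CPM. Krt19, Krt8, Krt7 and Vim were lower in the treated sample of each line, with log2 fold changes of -0.54, -0.46, -0.85 and -0.49. None passed the edgeR test on the 6 samples (adjusted p = 0.578 each), while DESeq2 called Krt19 (adjusted p = 0.00606). Of the 4 mesenchymal markers 1, Vim, was lower in all 3 lines and 1, Fn1, was higher, with a log2 fold change of 0.206. Zeb1 and Cdh2 went both ways over the lines, with log2 fold changes of 0.144 and -0.042. Of the 7 ductal markers 4 were lower in all 3 lines and 1, Sox9, was higher, and their summed level was 5330 to 9798 CPM untreated and 4090 to 8098 CPM treated. The summed level of the 5 acinar markers was 0.656 to 11.8 CPM untreated and 0.575 to 10.97 CPM treated, and 3 of them (Cpa1, Ptf1a and Cel) had no read. Nearly all of it came from Cela1, except in untreated cells of line DDKC_9804, where Prss2 held 0.257 of the 0.656 CPM. That of the 6 fibroblast markers was 7.27 to 12.9 and 5.75 to 11.6 CPM, with Col1a1 at up to 11.2 CPM, Pdgfra at up to 6.98 and Pdgfrb at up to 4.34 CPM, and 2 reads of Dcn and 1 of Lum in all libraries. That of the 6 leukocyte markers was 9.54 to 29.2 and 10.4 to 46.1 CPM, higher in the treated sample of each line and almost all of it from Cd68 and Csf1r, while Ptprc had 6 reads in all libraries and Adgre1 and Cd3e none. The 3 endothelial markers summed to 1.23 to 15.3 and 0.874 to 17.4 CPM, nearly all from Kdr. Some genes of the acinar, fibroblast, leukocyte and endothelial lists were thus at or near 0 and others were measured at a low level. Their part in the results below was not tested.

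Entry into mitosis is driven by the kinase CDK1 bound to cyclin A2 or to a B-type cyclin. The complex is held in check by inhibitory phosphates, which CDC25 phosphatases remove. Polo and Aurora kinases then build the spindle, the spindle assembly checkpoint waits until each kinetochore is attached, and the anaphase-promoting complex with its activator CDC20 marks cyclin B and securin for destruction. Most of the genes that encode this machinery are silent in G0 and G1 and are transcribed together in G2 and mitosis, so in bulk RNA their level follows both how many cells are cycling and how much RNA each dividing cell holds. These cannot be told apart in the values below.

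The mitosis genes were lower with rDKK3 in all 3 lines, most so in line DDKC_9750. All 50 together made up 2628 CPM in untreated and 1433 CPM in treated cells of line DDKC_9750, 45.5% less. In line DDKC_9790 they made up 5549 and 4346 CPM, 21.7% less, and in line DDKC_9804 3747 and 3209 CPM, 14.4% less. The treated sample was the lower one in each line, while the levels of the treated and untreated groups overlapped, since treated cells of line DDKC_9790 held more of this RNA than untreated cells of either other line. The mean log2 difference of the summed level, treated minus untreated, was -0.48 ± 0.345 (SD, n = 3 lines).

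Gene by gene, 50 of 50 members were lower with rDKK3 in line DDKC_9750, 48 in line DDKC_9790 and 44 in line DDKC_9804. The shares of all genes tested that were lower were 50.6%, 49.6% and 54.0% in the same order of lines. The median log2 difference of the members was -0.94, -0.31 and -0.30 in these lines, beside -0.005, 0 and -0.043 over all genes tested. Of all genes tested, 5.3%, 16.9% and 29.6% lay below the members' median in lines DDKC_9750, DDKC_9790 and DDKC_9804, so the members stood farther down in the distribution of line DDKC_9750 than in that of the other lines. In all, 42 of 50 members were lower in all 3 lines, whereas 18.1% of all genes tested were. The other 8 were Foxm1, Tpx2, Incenp, Kif4, Smc4 and Mki67, at or above the untreated value in line DDKC_9804, and Pttg1 and Smc2, above it in line DDKC_9790.

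**Figure D1:**
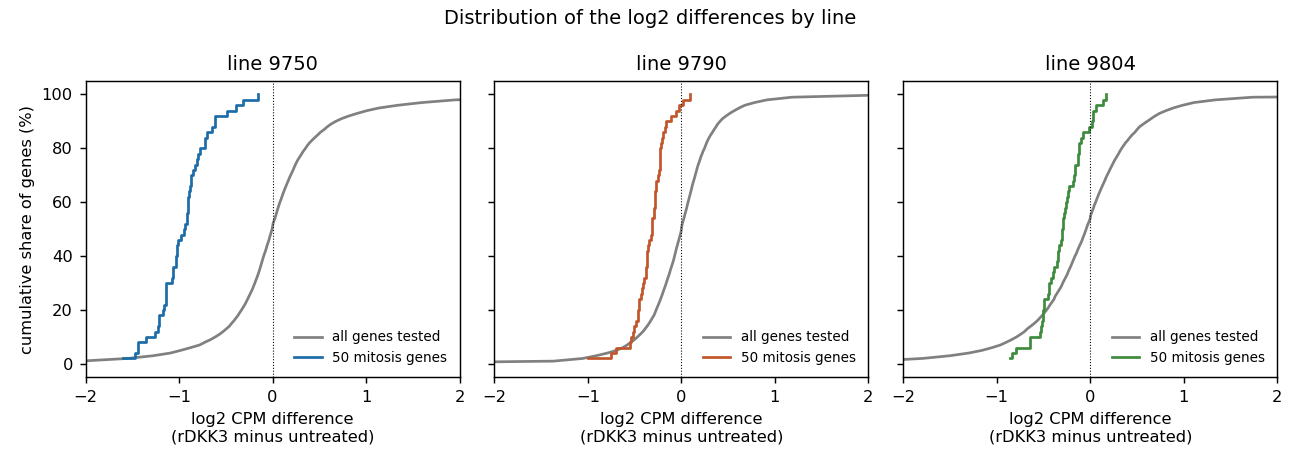
Cumulative share of genes (vertical axis, percent) against the log2 CPM difference between rDKK3 and untreated samples (horizontal axis), 1 panel per line, for the 50 mitosis genes (coloured steps) and all genes tested (grey). The members lie to the left of all genes in line DDKC_9750, with a median of -0.94, and closer to them in lines DDKC_9790 (-0.31) and DDKC_9804 (-0.30).

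No member passed the test across the 3 lines. Tested with edgeR over the 6 summed samples, blocked by line, the members had log2 fold changes from -1.03 to -0.12 with a median of -0.53, beside -0.005 over all genes, and their adjusted p-values ran from 0.578 to 0.793. Without DDKC_9750 the members' median was -0.29. The same test called 0.00659% of all genes (1 of 15165). An unadjusted p under 0.05 was reached by 32 of 50 members, all lower, and by 5.16% of all genes in that direction. DESeq2 on the same samples called 3 members, Ccnb2, Cenpa and Cdc20, all lower, with adjusted p-values of 8.54e-05, 0.0193 and 0.00662, and called 0.435% of all genes lower. Without a filter on low counts, edgeR called Ccnb2 (adjusted p = 0.0083) and Cenpa (adjusted p = 0.04) lower, with 0.164% of all genes.

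When the 12 libraries were entered as separate samples, edgeR called 39 of 50 members lower and none higher, and 10.1% of all genes lower. With the library-number series also in the model it called 42 members and 11.9% of all genes lower. That fit counts the 2 libraries of each line and condition as separate samples, so their spread enters its error. Its p-values compare these 6 samples and do not extend to other Dkk3-null lines.

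The difference was described line by line. Both treated libraries lay below both untreated ones for 49 of 50 members in line DDKC_9750, for 44 in line DDKC_9790 and for 39 in line DDKC_9804, where 35.2%, 31.2% and 39.3% of all genes tested did so. Both lay above for no member in lines DDKC_9750 and DDKC_9790 and for 3 in line DDKC_9804 (Foxm1, Incenp and Smc4), where 32.5%, 30.4% and 32.0% of all genes did so in DDKC_9750, DDKC_9790 and DDKC_9804. The interaction of line and treatment, which can be tested only against the spread between libraries, was called by edgeR for 48 of 50 members and for 61.9% of all genes. Only Bub3 and Ube2s were not called. With 1 sample of each line and condition there is no such test over samples.

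The depth of the samples moved with treatment in all 3 lines, with untreated to treated ratios of 2.91, 1.31 and 2.96 in DDKC_9750, DDKC_9790 and DDKC_9804. After all samples were thinned at random to the smallest total, the members' median log2 fold change was -0.52 and no member was called by edgeR.

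**Figure D2:**
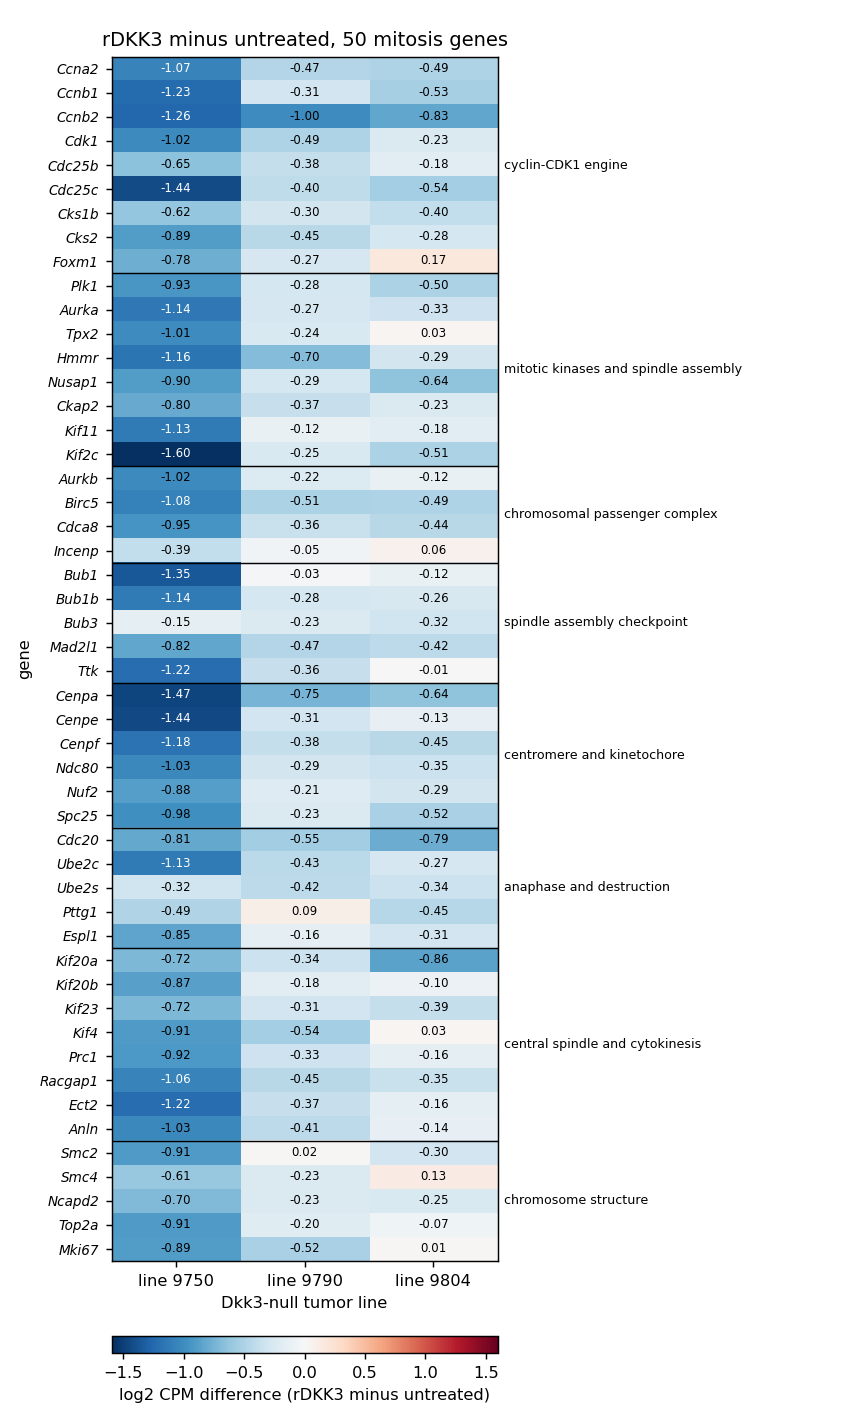
Log2 CPM difference, rDKK3 minus untreated, of each of the 50 genes (rows, grouped by role) in each line (columns), with the value in each cell and blue for lower with rDKK3. Line DDKC_9750 holds no positive value, line DDKC_9790 holds 2 (Pttg1 and Smc2) and line DDKC_9804 holds 6, of which Foxm1 at 0.17 is the highest.

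Promoters of late cell cycle genes are known for a pair of short elements, the cell cycle genes homology region (CHR), bound by the MuvB complexes, and CCAAT boxes, bound by NF-Y. The letters TTTGAA or TTCGAA for the CHR and CCAAT for the box were searched on both strands in RefSeq promoters of GRCm38.p6, which run from 250 bases before to 50 bases after each annotated start. A CHR and a CCAAT match can share an end base and were counted separately. Of the 50 genes, 42 had a promoter in that set, 45 promoters in all. Entries were missing for Aurkb, Ccna2, Cdc25c, Foxm1, Incenp, Kif20a, Smc4 and Tpx2. CHR letters were present in 82.2% of the member promoters and in 19.2% of all 32851 promoters of this length. CCAAT letters were present in 77.8% and 37.4%, and both in 71.1% and 7.52%. Within 50 bases on either side of the start, a window picked after the positions had been seen, the CHR letters began in 68.9% of member promoters and in 5.31% of all.

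**Figure D3:**
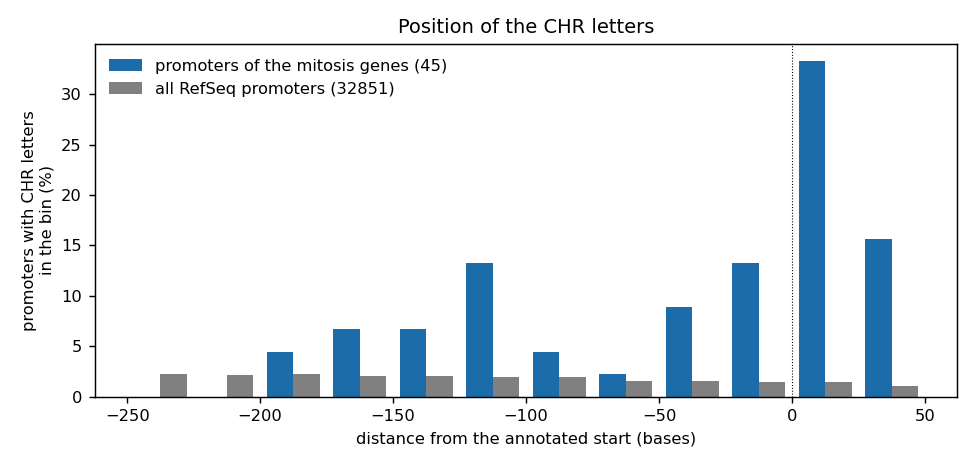
Share of promoters with CHR letters beginning in each bin of 25 bases (vertical axis, percent) by distance from the annotated start (horizontal axis), for the 45 promoters of the mitosis genes (blue) and for all 32851 RefSeq promoters (grey). The members' bar is highest in the bin from 0 to 25 bases after the start, at 33.3%, where that of all promoters is 1.43%.

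The stretches below show the CHR and CCAAT letters for the 3 members that DESeq2 called (Ccnb2, Cenpa and Cdc20). Cdk1 and Ube2c are shown as a kinase and a destruction enzyme whose stretches also hold both motifs. Top2a, which was close to its untreated level in line DDKC_9804, and Bub3, among the members with the smallest differences, follow. The order and number of the motifs differ between the stretches. All are given 5′ to 3′ on the gene's strand, with CHR and CCAAT letters of either orientation in capitals. The coordinates, on GRCm38.p6, are chr9:70421540-70421654 (minus strand) for Ccnb2, chr5:30666766-30666910 (plus) for Cenpa, chr4:118437344-118437443 (minus) for Cdc20, chr10:69352913-69353012 (minus) for Cdk1, chr2:164769829-164769928 (plus) for Ube2c, chr11:99024190-99024349 (minus) for Top2a and chr7:131560280-131560369 (plus) for Bub3. The last 5 end at the base before the start, that of Ccnb2 runs 15 bases past it and that of Cenpa 25 bases past it.
Ccnb2: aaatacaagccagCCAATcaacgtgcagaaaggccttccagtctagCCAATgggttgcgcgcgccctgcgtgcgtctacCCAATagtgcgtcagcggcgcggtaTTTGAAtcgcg
Cenpa: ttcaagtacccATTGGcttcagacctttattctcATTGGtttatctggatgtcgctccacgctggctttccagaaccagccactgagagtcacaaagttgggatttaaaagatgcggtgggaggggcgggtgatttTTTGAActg
Cdc20: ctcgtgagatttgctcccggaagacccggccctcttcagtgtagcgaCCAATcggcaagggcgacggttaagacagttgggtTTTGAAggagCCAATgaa
Cdk1: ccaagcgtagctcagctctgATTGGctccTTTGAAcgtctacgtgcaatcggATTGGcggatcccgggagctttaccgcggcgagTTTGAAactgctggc
Ube2c: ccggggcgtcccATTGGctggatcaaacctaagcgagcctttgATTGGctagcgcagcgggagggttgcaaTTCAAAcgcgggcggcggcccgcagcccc
Top2a: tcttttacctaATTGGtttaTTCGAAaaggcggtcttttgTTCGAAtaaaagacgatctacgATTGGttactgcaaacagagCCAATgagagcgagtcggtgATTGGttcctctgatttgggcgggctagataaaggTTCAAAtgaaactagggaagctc
Bub3: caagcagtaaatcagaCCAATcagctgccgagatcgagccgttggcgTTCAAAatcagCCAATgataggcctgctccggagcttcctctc
The 7 stretches were chosen and cut to show both motifs, so their presence here is no result. Over the 34 members with CHR letters anywhere in the window the median log2 fold change was -0.52, and over the 8 without them (Birc5, Ccnb1, Cenpe, Cks2, Mad2l1, Nuf2, Nusap1 and Pttg1) it was -0.58, with ranges of -1.03 to -0.23 and -0.69 to -0.28 that overlapped.

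The 9 genes of the cyclin-CDK1 engine had median log2 differences of -1.02, -0.40 and -0.40 in lines DDKC_9750, DDKC_9790 and DDKC_9804, and 8 of them were lower in all 3 lines. Ccnb2, a B-type cyclin (chromosome 9, 70314974 to 70328829, minus strand, GRCm39), stood at 39.4, 134 and 57.7 CPM in untreated cells of lines DDKC_9750, DDKC_9790 and DDKC_9804 and at 16.4, 67.2 and 32.4 CPM in treated cells. It was the member with the largest log2 fold change, -1.03 ± 0.132 (SE), and the only one that was lower by 0.8 or more in every line. Ccnb1, the main mitotic cyclin, went from 39.0, 92.6 and 52.8 CPM to 16.6, 74.6 and 36.5 CPM in the same order of lines. Its log2 differences of -1.23, -0.31 and -0.53 spread more over the lines than those of Ccnb2, which ran from -1.26 to -0.83. Ccna2, the cyclin of S phase and early mitosis, was at 73.1, 240.5 and 115 CPM untreated and 34.9, 174 and 81.8 CPM treated, with a log2 fold change of -0.67 ± 0.158 (SE).

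Cdk1, the kinase these cyclins activate (chromosome 10, 69170976 to 69188768, minus strand, GRCm39), stood at 70.5, 131 and 98.1 CPM untreated and 34.7, 93.0 and 83.5 CPM treated. Its differences of -1.02, -0.49 and -0.23 were largest in DDKC_9750 and smallest in DDKC_9804. Cdc25c, a phosphatase that activates CDK1, was the rarest of the group at 7.51, 19.7 and 11.4 CPM untreated and 2.72, 14.9 and 7.80 CPM treated, and had the third largest log2 fold change, -0.76 ± 0.257 (SE). The related phosphatase Cdc25b was lower by smaller amounts, with log2 differences of -0.65, -0.38 and -0.18. The small CDK-binding proteins Cks1b and Cks2 were lower in each line too, with log2 fold changes of -0.44 ± 0.117 and -0.54 ± 0.164 (SE).

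Foxm1, which encodes a transcription factor of the G2 and mitosis genes (chromosome 6, 128339930 to 128353109, plus strand, GRCm39), did not follow them in line DDKC_9804. It stood at 45.4, 74.2 and 78.4 CPM untreated and at 26.4, 61.4 and 88.0 CPM treated, with log2 differences of -0.78, -0.27 and 0.17. In line DDKC_9804 both treated libraries were above both untreated ones.

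**Figure D4:**
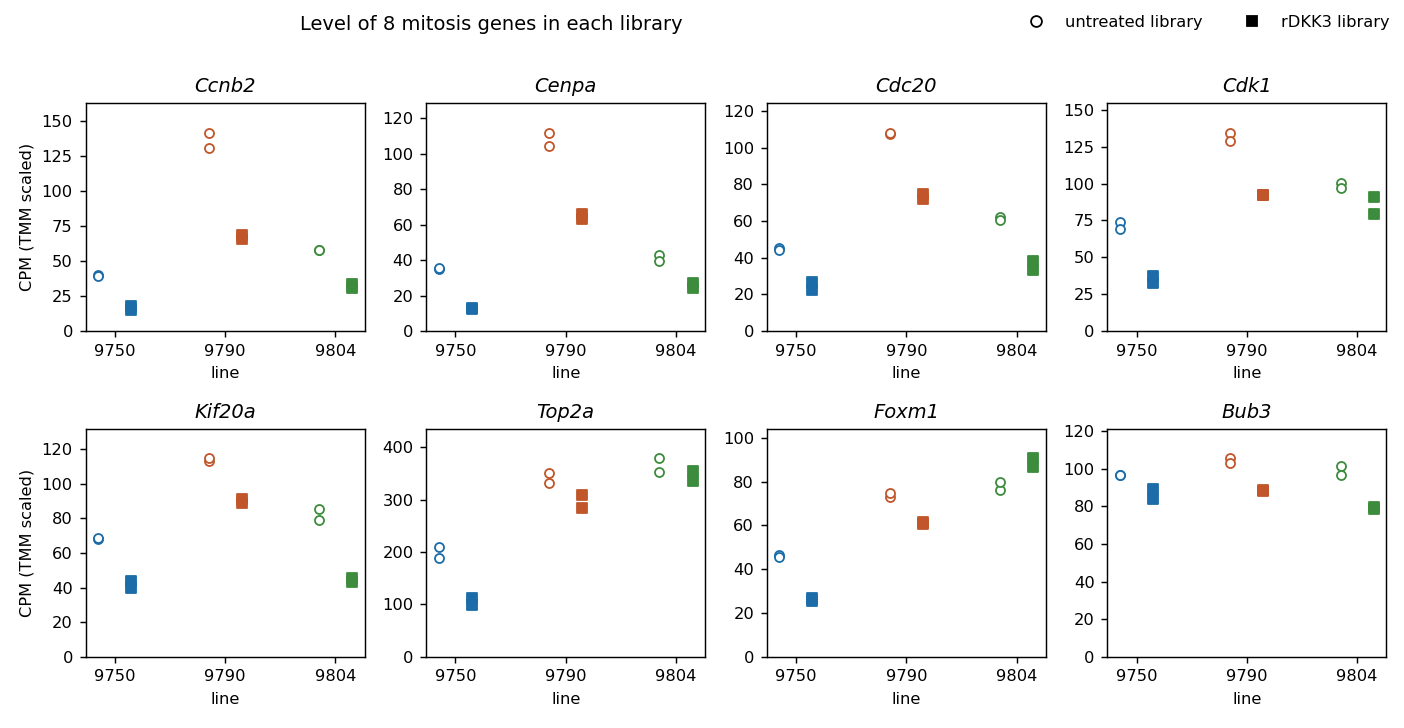
CPM of 8 mitosis genes (vertical axes, from 0) in each of the 12 libraries by line (horizontal axes), open circles for untreated and filled squares for rDKK3 libraries. The treated libraries of Ccnb2, Cenpa, Cdc20 and Kif20a lie below the untreated ones in all 3 lines, those of Foxm1 lie above them in line DDKC_9804, and those of Top2a overlap with them there.

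The 8 genes of the mitotic kinases and spindle assembly had median differences of -1.07, -0.27 and -0.31, and 7 were lower in all 3 lines. Plk1, the Polo kinase, stood at 43.5, 62.4 and 55.8 CPM untreated and 22.7, 51.4 and 39.4 CPM treated. Aurka, the Aurora kinase of the spindle poles, went from 24.3, 65.7 and 27.4 CPM to 10.97, 54.5 and 21.8 CPM. Both were lower in every line, and their log2 fold changes were -0.57 ± 0.162 and -0.56 ± 0.208 (SE).

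Tpx2, which binds and activates Aurora A on the spindle, stood at 68.6, 123 and 93.0 CPM untreated and 34.1, 104.5 and 95.1 CPM treated. It was lower by 1.01 in line DDKC_9750 and higher by 0.032 in line DDKC_9804. Kif11, the motor that pushes the spindle poles apart, was at 51.3, 109 and 66.6 CPM untreated and 23.3, 101 and 58.8 CPM treated. Its log2 differences were -1.13, -0.12 and -0.18, with both treated libraries below both untreated ones in every line. Kif2c, a kinesin that takes microtubules apart, had the largest single difference of any member, -1.60 in line DDKC_9750, with -0.25 and -0.51 in the other lines. Hmmr, a microtubule-binding protein of the spindle, was lower by 1.16, 0.70 and 0.29. Nusap1 and Ckap2, both microtubule-associated, had log2 fold changes of -0.60 ± 0.158 and -0.47 ± 0.154 (SE).

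The chromosomal passenger complex joins the kinase Aurora B with survivin, borealin and INCENP, and moves from centromeres to the midzone of the spindle. Aurkb stood at 28.9, 48.1 and 42.8 CPM untreated and 14.2, 41.3 and 39.3 CPM treated. Birc5, which encodes survivin, went from 28.0, 45.6 and 41.6 CPM to 13.2, 31.96 and 29.6 CPM. Birc5 was lower by about the same amount in lines DDKC_9790 and DDKC_9804, -0.51 and -0.49, whereas Aurkb was lower there by 0.22 and 0.12. Cdca8, which encodes borealin, had differences of -0.95, -0.36 and -0.44. Incenp, the scaffold, showed the smallest log2 fold change of all 50 genes, -0.12 ± 0.131 (SE), from 66.4, 117 and 71.0 CPM untreated to 50.7, 113 and 74.2 CPM treated. Its log2 fold change was smaller than those of its partners within the complex, a difference that was not tested. In line DDKC_9804 both treated libraries of Incenp were above both untreated ones.

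The 5 genes of the spindle assembly checkpoint were lower in all 3 lines, with medians of -1.14, -0.28 and -0.26. Bub1b, which encodes the checkpoint protein BUBR1, stood at 55.8, 86.6 and 60.9 CPM untreated and 25.3, 71.3 and 51.0 CPM treated. Mad2l1, which encodes MAD2, the inhibitor of CDC20, was at 40.5, 97.8 and 62.3 CPM untreated and 22.8, 70.8 and 46.7 CPM treated, and its differences of -0.83, -0.47 and -0.42 were more even over the lines than those of Bub1b, -1.14, -0.28 and -0.26. Ttk, the kinase that starts checkpoint signaling, went from 14.6, 20.7 and 17.1 CPM to 6.21, 16.1 and 16.9 CPM. It was lower by 1.22 in line DDKC_9750 and by 0.012 in line DDKC_9804.

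Bub1 showed the most uneven response of the checkpoint genes, -1.35 in line DDKC_9750 against -0.03 and -0.12. Bub3 stood at 95.8, 103.9 and 98.2 CPM untreated and 86.0, 88.7 and 78.8 CPM treated. It was nearly level over the lines in both conditions, its log2 fold change of -0.23 ± 0.104 (SE) was among the 3 smallest, and it was the only member with its smallest difference in line DDKC_9750 and its largest in line DDKC_9804.

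All 6 genes of the centromere and kinetochore were lower in all 3 lines, with medians of -1.11, -0.30 and -0.40. Cenpa, the histone H3 variant that marks centromeres (chromosome 5, 30824121 to 30832174, plus strand, GRCm39), stood at 35.4, 109.7 and 40.6 CPM untreated and 12.7, 65.3 and 26.0 CPM treated. Its log2 fold change of -0.94 ± 0.195 (SE) was second only to that of Ccnb2 among the members. Cenpf, a large kinetochore protein, went from 57.2, 145 and 85.6 CPM to 25.2, 112 and 62.8 CPM. Ndc80, which binds spindle microtubules, was at 15.6, 24.2 and 27.1 CPM untreated and 7.57, 19.7 and 21.3 CPM treated. Its partners in the NDC80 complex, Nuf2 and Spc25, had log2 fold changes of -0.45 ± 0.185 and -0.57 ± 0.196 (SE), beside -0.55 ± 0.198 for Ndc80 itself. Cenpe, a kinetochore motor, was lower by 1.44 in line DDKC_9750 but by 0.31 and 0.13 in lines DDKC_9790 and DDKC_9804.

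Of the 5 genes of anaphase and protein destruction, 4 were lower in all 3 lines, with group medians of -0.81, -0.42 and -0.34. Cdc20 (chromosome 4, 118290098 to 118294549, minus strand, GRCm39) stood at 44.1, 108 and 61.0 CPM untreated and 25.1, 73.7 and 35.2 CPM treated. Its differences of -0.81, -0.55 and -0.79 were among the most even of the members, and its log2 fold change of -0.72 ± 0.118 (SE) had a small error. Ube2c, the ubiquitin-conjugating enzyme of the anaphase-promoting complex, was at 47.6, 167 and 63.2 CPM untreated and 21.7, 124 and 52.3 CPM treated. Pttg1, which encodes securin, was lower by 0.49 and 0.45 in lines DDKC_9750 and DDKC_9804 and higher by 0.09 in line DDKC_9790. Espl1, which encodes separase, the protease securin holds back, had differences of -0.85, -0.16 and -0.31.

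Ube2s, the enzyme that extends ubiquitin chains on substrates of this complex, had even differences of -0.32, -0.42 and -0.34, but its libraries did not separate by treatment in any line. Its log2 level was 1.00 higher in the higher-numbered than in the lower-numbered libraries, and that of Cks2 was 0.76 higher, while the median of the members was -0.05. Ube2s also has a near-identical copy, Ube2srt, over 761 bases at 99.9% identity, which held 137 reads in all libraries against 9413 for Ube2s, and it overlaps the abundant gene Rpl28 on the opposite strand over 521 bases. The part of either in the values of Ube2s was not tested. Other members overlap a gene on the opposite strand too. Among them are Kif20a with Cdc23 over 2327 bases, Kif4 with Pdzd11 over 832 and Cdc20 with Elovl1 over 53. Ccna2 overlaps Exosc9 over 863 bases and Bub3 overlaps Fgfr2 over 11674. The part of these overlaps in the values was not tested. Copies of Ccnb1, Cks2, Mad2l1, Ndc80 and Racgap1 aligned over at least 240 bases at 95% identity or more held no more than 28 reads each.

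The 8 genes of the central spindle and cytokinesis had medians of -0.91, -0.35 and -0.16, and 7 were lower in all 3 lines. Kif20a, a kinesin of the midzone (chromosome 18, 34757666 to 34766330, plus strand, GRCm39), went from 68.1, 114 and 80.8 CPM to 41.4, 90.0 and 44.5 CPM. It had the largest difference of any member in line DDKC_9804, -0.86, more than its -0.72 in line DDKC_9750. Prc1, which bundles the midzone microtubules, stood at 75.1, 194 and 117 CPM untreated and 39.7, 154 and 104.5 CPM treated. Anln, which encodes the contractile ring protein anillin, was at 107 CPM, 305 CPM and 238 CPM untreated and at 52.5, 229 and 217 CPM treated. Both Prc1 and Anln were lower by under 0.2 in line DDKC_9804.

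Kif23 and Racgap1, which together form centralspindlin, had log2 fold changes of -0.47 ± 0.127 and -0.62 ± 0.171 (SE). Ect2, the exchange factor they recruit to the cleavage site, was lower by 1.22, 0.37 and 0.16. Kif20b had differences of -0.87, -0.18 and -0.10. Kif4, a chromosome-bound kinesin, was lower by 0.91 and 0.54 in lines DDKC_9750 and DDKC_9790 and higher by 0.031 in line DDKC_9804.

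The 5 genes of chromosome structure showed the smallest group medians in lines DDKC_9790 and DDKC_9804, -0.23 and -0.07, beside -0.89 in line DDKC_9750, and 2 of 5 were lower in all 3 lines. Top2a, the topoisomerase that disentangles chromosomes, stood at 195, 338 and 360.3 CPM untreated and 104, 295.5 and 343 CPM treated. Mki67, which coats mitotic chromosomes and is the usual stain for cycling cells, went from 168, 341 and 233 CPM to 90.5, 238 and 235 CPM. Smc4, a condensin subunit, was at 109 CPM, 311 CPM and 170.1 CPM untreated and at 71.6, 264.5 and 187 CPM treated. In line DDKC_9804 these 3 genes had differences of -0.07, 0.01 and 0.13, whereas in line DDKC_9750 they were lower by 0.91, 0.89 and 0.61. Smc2, the partner of Smc4, was lower by 0.91 and 0.30 in lines DDKC_9750 and DDKC_9804 and within 0.02 of its untreated value in line DDKC_9790. Ncapd2, a further condensin subunit, had differences of -0.70, -0.23 and -0.25.

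Across the 50 members the differences in 1 line were only loosely related to those in another. Pearson's r over the 50 genes was 0.30 between lines DDKC_9750 and DDKC_9790, 0.17 between DDKC_9750 and DDKC_9804 and 0.35 between DDKC_9790 and DDKC_9804, where it was 0.08, -0.03 and 0.24 over all genes tested. These are descriptions, since genes of 1 sample share its library, depth and scaling.

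The lines also differed in how much of this RNA they held. Between lines, edgeR called 41 of 50 members, beside 35.3% of all genes. Untreated, 43 members were highest in line DDKC_9790 and the other 7 (Foxm1, Ndc80, Nuf2, Spc25, Pttg1, Smc2 and Top2a) in line DDKC_9804. Line DDKC_9750 was the lowest for 46 of 50 untreated and for 49 of 50 treated. The spread between untreated lines was largest for Cdc25b, 4.22 times higher in line DDKC_9790 than in line DDKC_9750 (edgeR adjusted p = 0.00413). It was smallest for Bub3, with 1.09 times between its highest and lowest line (edgeR adjusted p = 0.68). The 9 members not called were Plk1, Bub1, Bub1b, Bub3, Ttk, Nuf2, Spc25, Kif4 and Smc2, with adjusted p-values from 0.0548 to 0.68. Without line DDKC_9790, 3 members and 10.2% of all genes were called between lines DDKC_9750 and DDKC_9804. Line DDKC_9750 thus had both the lowest levels of these genes and the largest differences with rDKK3.

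Levels were also divided by the combined length of all exons in a gene's basic annotated transcripts. The order of genes on this scale depends on that length, which need not be the length of the RNA present. Per kilobase of exon, Cks1b was the highest member in untreated cells at 85.1 ± 29.0 CPM per kb (SD, n = 3 lines). It was the highest in each line, at 59.4, 117 and 79.3 CPM per kb in DDKC_9750, DDKC_9790 and DDKC_9804. Top2a came next by its mean, at 53.2 ± 16.0, and Ccnb2 after it at 46.1 ± 30.1 CPM per kb, but their order depended on the line. Ccnb2 stood at 23.5, 80.3 and 34.5 CPM per kb in the same order of lines, above Top2a in DDKC_9790 (60.4) and below it in DDKC_9750 (34.8) and DDKC_9804 (64.4). The lowest were Spc25 at 3.23 ± 0.544, Ttk at 4.03 ± 0.711 and Espl1 at 4.12 ± 1.06 CPM per kb. Their exon lengths were 5631, 4330 and 7745 bases. Before division by length, Spc25 stood at a mean of 18.2 CPM in untreated cells, above Cdc25c at 12.9 CPM. The means of Top2a and Ccnb2 lay within 1 SD of each other, as did Ttk and Espl1, whereas Cks1b differed from Top2a, and Spc25 from Ttk, by more than the SD of either.

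A further list of 95 genes of mitosis had a median log2 fold change of -0.28, with medians of -0.67, -0.15 and -0.10 in lines DDKC_9750, DDKC_9790 and DDKC_9804, and 49 of 95 genes were lower in all 3 lines, beside 18.1% of all genes. In DDKC_9804 59 of 95 were lower, beside 54.0% of all genes, and 24 had both treated libraries above both untreated ones, beside 32.0% of all genes. None was called by the edgeR test on 6 samples, while 21 had an unadjusted p under 0.05, all lower (5.16% of all genes), and DESeq2 called 1 lower (0.435% of all genes). The lowest log2 fold changes were those of Pimreg (-0.95 ± 0.298, SE), the kinetochore gene Spc24 (-0.86 ± 0.181) and the centromere gene Cenpp (-0.86 ± 0.313). The highest were those of Lin54 (0.22 ± 0.192), which encodes the CHR-binding subunit of MuvB, Psrc1 (0.18 ± 0.251) and Cenpu (0.12 ± 0.218). Lin54 stood at 0.023, -0.019 and 0.655 in lines DDKC_9750, DDKC_9790 and DDKC_9804. In the same order Psrc1 stood at -0.447, 0.193 and 0.83, and Cenpu at -0.292, 0.037 and 0.584.

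The 58 genes of DNA replication and the G1/S transition had medians of -0.64, -0.16 and 0.002 in lines DDKC_9750, DDKC_9790 and DDKC_9804. In line DDKC_9804 29 of 58 were lower, beside 54.0% of all genes. None was called by edgeR on the 6 samples or by DESeq2, and 12 had an unadjusted p under 0.05, all lower (5.16% of all genes). Cdc6 (-0.63 ± 0.183, SE), Tk1 (-0.61 ± 0.162) and Rpa3 (-0.60 ± 0.146) had the lowest log2 fold changes. At the other end, the licensing factor Cdt1 went from -0.63 in line DDKC_9750 through -0.05 to 1.08 in line DDKC_9804, E2f8 from -0.95 through -0.002 to 0.93, and Rfc1 from 0.02 through 0.18 to -0.03. The levels of this list took another order over the lines than those of the mitosis genes, since 41 of 58 were lowest and 7 highest in line DDKC_9790 when untreated.

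The 16 CDK inhibitors and p53 targets had a median log2 fold change of 0.03. In all 3 lines 4 were lower (18.1% of all genes) and 1 was higher (2160 of the 15165 genes tested). Cdkn2a and Cdkn2b stood at 0 CPM in lines DDKC_9790 and DDKC_9804 in both conditions and were measured in DDKC_9750 only. Their log2 differences in DDKC_9790 and DDKC_9804 were therefore 0, as were the medians of the list there. None of the 16 was called by edgeR or DESeq2 on the 6 samples. At an unadjusted edgeR p under 0.05, 2 were lower and 1 higher (8.53% of all genes in either direction). The inhibitors Cdkn2d and Cdkn2c had log2 fold changes of -0.58 ± 0.129 and -0.51 ± 0.21 (SE), and Sesn1 of -0.56 ± 0.15. Cdkn2d was even over lines DDKC_9750, DDKC_9790 and DDKC_9804, at -0.56, -0.533 and -0.634. Cdkn2c was not, at -0.179, -0.28 and -1.061. Sesn2 (0.50 ± 0.135), Zmat3 (0.39 ± 0.234) and Mdm2 (0.36 ± 0.194) had the highest, and Mdm2 and Zmat3 stood at -0.10 and -0.12 in line DDKC_9750 but at 0.82 and 1.03 in line DDKC_9804.

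**Figure D5:**
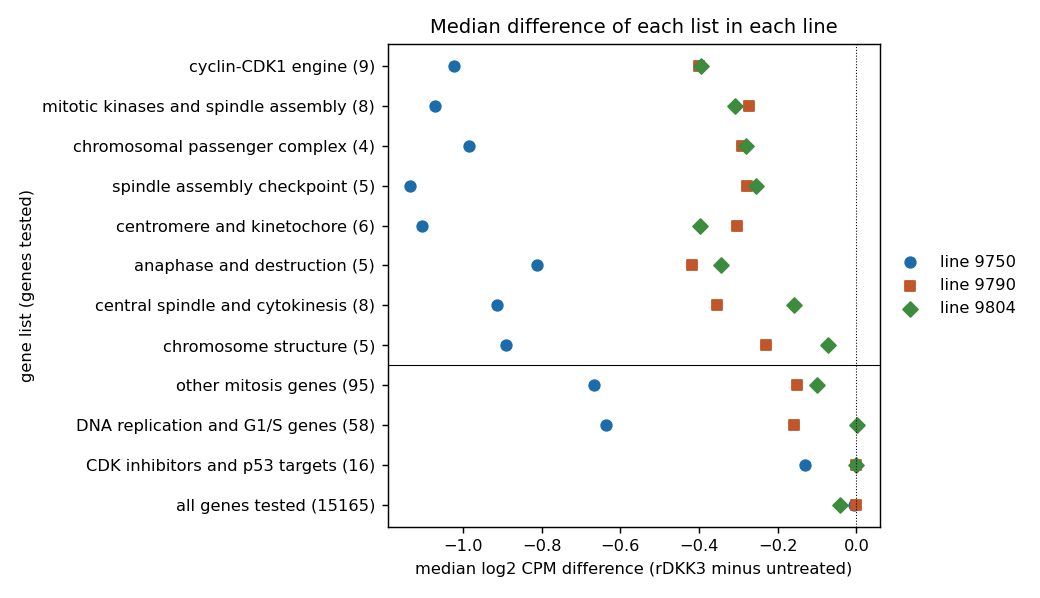
Median log2 CPM difference between rDKK3 and untreated samples (horizontal axis) for each role group of the mitosis genes and, under the horizontal rule, for other cell cycle lists and all genes tested (vertical axis, with the number of genes tested), 1 symbol per line. Line DDKC_9750 lies between -1.14 and -0.81 in all 8 role groups, and lines DDKC_9790 and DDKC_9804 lie between -0.42 and -0.07.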

How the data were processed

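The authors sequenced 50-base read pairs from dUTP-stranded libraries, aligned them with STAR 2.7.9a to GRCm39 and counted them strand-specifically on GENCODE M32 genes with summarizeOverlaps. The submitters' processing notes also list Picard 2.19.2, DESeq2 1.38.0 and R 4.2.2. They deposited raw counts per gene for all 12 libraries, without normalization.

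Here, 29823 of 57278 genes had any count. edgeR's filter on low counts, applied over the 6 combinations of line and condition, kept 15165. The counts of each library pair were summed and tested with edgeR 4.0.16 (quasi-likelihood, TMM, R 4.3.3) for treatment with line as a block, and p-values were adjusted over all genes by Benjamini-Hochberg with a threshold of 0.05. The study's model formula is not given in the sources used here. Treated and untreated samples were paired by the line that the labels name. Log2 CPM used a prior count of 2, and standard errors came from the log2 fold change and F. Line levels were tested over 2 coefficients of the same fit. Both tests were checked on simulated counts. Alternatives were 12 libraries, no line term, other scaling and filters, DESeq2 1.42.0, each line left out, each library series alone and thinned counts. Exon lengths came from GENCODE M39, as the union of the exons of a gene's basic transcripts. Members and lists were chosen with earlier results of these data known. All 50 members are named, those with a fixed role or the 3 highest or lowest log2 fold changes with every sample's value. Of the other lists, the genes with the 3 highest and 3 lowest log2 fold changes at an average log2 CPM of at least 1 are named. A further allele of the mice is not reported here.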

Additional observations from a re-analysis of the deposited data

Results flagged for a closer look

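In 6 members the difference was positive in both library pairs of 1 line and negative in both pairs of the other 2 lines. In line DDKC_9804 these were Foxm1 at 0.17 on the log2 scale, Smc4 at 0.13, Incenp at 0.063, Kif4 at 0.031 and Mki67 at 0.014, and in line DDKC_9790 it was Pttg1 at 0.088. The 2 pairs of Foxm1 in line DDKC_9804 gave 0.25 and 0.12, those of Smc4 0.14 and 0.12, those of Pttg1 in line DDKC_9790 0.14 and 0.03, and those of Mki67 0.02 and 0.004. The difference between the lines was not tested over samples, since each line and condition is 1 sample.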

How the results depend on the processing

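The number of members called depended on the unit of replication and on the tool. It was 0 with 6 summed samples, 39 with 12 libraries and 42 with 12 libraries and the library-number series in the model (18.1% and 20.6% of all genes called in either direction), 3 with DESeq2 and 2 without a filter on low counts, all lower. It was 0 without the replicate block of line (median -0.43), with RLE scaling, with a filter of 10 counts, after thinning, in either library series alone and with any line left out. The median log2 fold change of the members stayed below 0 in all of these, from -0.64 to -0.29. It was -0.29 without line DDKC_9750 against -0.53 with all lines, and -0.64 without line DDKC_9804. All 50 log2 fold changes were below 0 in every alternative except that Incenp was at 0.01 without line DDKC_9750. Members called between lines numbered 3 to 44 with 1 line left out, the 3 being without line DDKC_9790, where 10.2% of all genes were called. The 31 without DDKC_9750 came with 33.3% and the 44 without DDKC_9804 with 30.7%. They numbered 40 to 49 in the other alternatives, the 48 and 49 coming from the fits on 12 libraries, which called 77.7% and 80.5% of all genes, against 35.3% on 6 samples. The mean log2 difference of the summed level was -0.45 with unscaled totals. In the shallowest library the member with the fewest reads had 9, so no member was near the limit of 3 counts.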
